A study of Mus musculus with 9 samples.

Results

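The genes that write, erase and read DNA methylation were examined in the fetal mouse cortex after prenatal alcohol. They were taken by symbol from the table of all loci: the methyltransferases *Dnmt1*, *Dnmt3a* and *Dnmt3b*, the maintenance partner *Uhrf1*, the dioxygenases *Tet1*, *Tet2* and *Tet3*, and the methyl-CpG-binding domain proteins *Mbd2* and *Mbd3*. All 9 were found, each at 1 locus of its own name, among 27095 loci. Of these, 8 had a mean FPKM (fragments mapped to a gene, scaled to exon length and library depth) of at least 1 over the groups, as did 15548 loci in all, and *Dnmt3b* did not.

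A methyl group on the cytosine of a CpG is copied onto the new strand after replication by Dnmt1, which Uhrf1 brings to hemimethylated DNA. Dnmt3a and Dnmt3b methylate sites that carried no mark before, and Tet enzymes oxidise the methyl group so that it can be lost by dilution or cut out by base excision repair. Mbd2 binds methylated CpG, Mbd3 of mammals binds it poorly, and each is a subunit of the nucleosome remodelling and deacetylase complex (NuRD). In the developing cortex, maintenance methylation is tied to dividing progenitors, whereas Dnmt3a and the Tet enzymes are also used by neurons after their last division.

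RNA-seq was done on 9 wild-type C57BL/6 fetuses (C57BL/6J in the study's methods) at gestational day 17, in 3 groups of 3. Dams of both alcohol groups had received ethanol (EtOH) intraperitoneally at 2.9 g/kg on day 7, and control dams had received lactated Ringer's solution. EtOH-exposed affected fetuses showed defects of the eye and of cortical patterning, and EtOH-exposed unaffected fetuses looked normal, so that the alcohol groups differ by an outcome and not by treatment. The tissue is given as fetal brain in the labels and as cortex in the study's methods, and the litters of the sequenced fetuses are not given in the sources used here. The table holds 1 FPKM per group and locus, so no difference below carries an error between animals or a test, and depth per library is unknown. A gene is called past the fold where its FPKM, with 0.1 added, in the higher group was at least 25% above that in the lower (0.322 on the log2 scale).

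Some differences between the groups precede any result. *Xist*, the RNA of the inactive X chromosome, stood at 9.24 FPKM in the control group, 0.021 in the unaffected group and 10.3 in the affected group, and *Ddx3y* of the Y chromosome at 2.66, 8.40 and 0.00906. *Xist* was thus near 0 in the unaffected group and *Ddx3y* near 0 in the affected group, while control held both, and sex cannot be told apart from phenotype between them. Telencephalon markers were all present (4 of 4, with summed FPKM of 322, 302 and 408), and the 7 cerebellum and hindbrain markers summed to 0.173, 0.125 and 0.155, with *Hoxb2* and *Hoxb3* at 0. Erythroid markers summed to 5814, 7524 and 3651 in control, unaffected and affected groups, radial glia markers to 2549, 2713 and 1963, and projection neuron markers to 2954, 2827 and 3079. The leading genes of these lists were a joint beta-globin locus (5357, 6924 and 3277), *Fabp7* of radial glia (2015, 2151 and 1352) and *Tubb3* of neurons (1809, 1807 and 1799). These sums follow their leading genes: without regard to level, 9 of 12 radial glia markers were higher in affected than control cortex (median 0.21 on the log2 scale) and 10 of 12 projection neuron markers were (median 0.22, with 5 past the fold). Between affected and unaffected, 11 of the 12 projection neuron markers were higher in affected cortex (7 past the fold, median 0.40), and 12 of 12 were lower in unaffected than control cortex. Of 6 erythroid loci with a mean FPKM of at least 1, 6 were past the fold and lower in affected than unaffected cortex and 6 past it and higher in unaffected than control, whereas against control 2 were higher and 4 lower in affected cortex. Of 9 microglia and neutrophil markers, 7 were lower in affected cortex than in control (4 past the fold) and 7 lower than in unaffected cortex (5 past the fold), and all 9 ventral telencephalon markers were higher in unaffected than control cortex. Of 4 telencephalon markers, 3 were past the fold and higher in affected than control cortex and 2 than unaffected. Of 6 endothelium markers, 2 and 3 were, with 0 lower past the fold in either list. All 5 counted choroid plexus markers were above control in both alcohol groups, 1 past the fold in each. Past the fold over all loci were 12.1% higher and 11.3% lower in affected against control, 20.3% and 18.1% in affected against unaffected, and 5.45% and 6.8% in unaffected against control. The part of these shifts in what follows was not tested, and in bulk tissue fewer cells of a type and less RNA per cell cannot be told apart.

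Levels of the 9 genes spanned from 0.558 for *Dnmt3b* to 80.9 for *Mbd3* in control cortex. *Mbd3* was the highest in each group, followed by *Dnmt1*, and below these *Dnmt3a*, *Tet3*, *Tet2*, *Tet1* and *Dnmt3b* kept that order in all 3 groups. *Tet2* and *Tet1* were almost equal in affected cortex, at 3.01 and 2.98. *Mbd2* and *Uhrf1* lay between *Dnmt1* and *Dnmt3a*, at 15.7 and 15.1 in control, 16.5 and 16.6 in unaffected and 16.0 and 19.6 in affected cortex. No spread over animals is given, so the pair cannot be ordered in control or unaffected cortex, where the values almost coincide. FPKM is scaled per length, which permits this comparison between genes within a group. Between groups, differences followed transcript length, as given below. Orders and ratios of genes unlike in length are not adjusted for this.

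**Figure D1:**
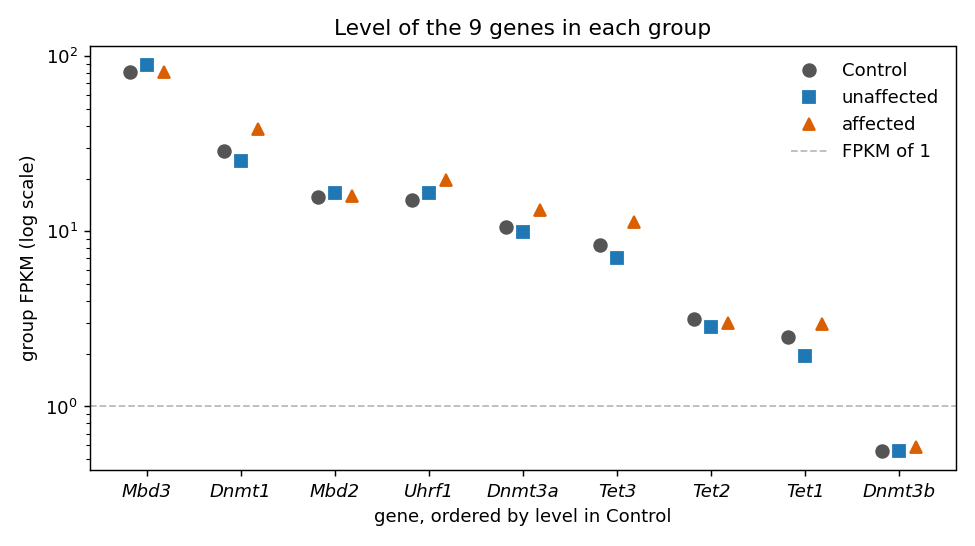
Group FPKM of the 9 genes on a log axis, ordered by the control level, with 1 point per group (circle, control; square, unaffected; triangle, affected) and no error bars because the table gives 1 value per group. *Dnmt1*, *Uhrf1*, *Dnmt3a*, *Tet3* and *Tet1* were highest in the affected group, whereas *Mbd3*, *Mbd2* and *Tet2* stayed within a narrow band.

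Maintenance methylation was the first role examined. *Dnmt1* (mm10 chr9:20907206-20959888, minus strand) was at 28.8 FPKM in control fetuses, 25.3 in unaffected ones and 38.5 in affected ones. The affected group was therefore the highest and the unaffected group the lowest, with affected 1.33-fold above control and 1.52-fold above unaffected (0.41 and 0.60 on the log2 scale). *Uhrf1* (chr17:56303337-56323486, plus strand) stood at 15.1, 16.6 and 19.6. It was likewise highest in the affected group, by 1.30-fold over control (0.37 on the log2 scale), but the unaffected group lay above control, and affected exceeded unaffected by 1.18-fold. The ratio of *Dnmt1* to *Uhrf1* came to 1.91, 1.53 and 1.97 in the same order.

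E2F factors drive many genes of DNA replication, and the promoters of this pair were therefore read for E2F letters, beside those of *Dnmt3a* and *Tet3*, the other members past the fold over control. RefSeq promoters (GRCm38.p6, 250 bases before to 50 after a start) were found for 8 of the 9 genes, and for each gene the one with the most CpG is shown here. Capitals mark TTTCCCGC, TTTGGCGC, TTTGCCGC or TTTCGCGC on either strand, and no other motif was marked. The *Dnmt1* window is chr9:20952574-20952873 (minus strand), *Uhrf1* chr17:56304063-56304362 (plus), *Dnmt3a* chr12:3806910-3807209 (plus) and *Tet3* chr6:83441629-83441928 (minus). The windows of *Dnmt1* and *Uhrf1* lie wholly downstream of another start of the same gene, at chr9:20952979 and chr17:56303337. They are thus inside the gene as read from those starts.
Dnmt1: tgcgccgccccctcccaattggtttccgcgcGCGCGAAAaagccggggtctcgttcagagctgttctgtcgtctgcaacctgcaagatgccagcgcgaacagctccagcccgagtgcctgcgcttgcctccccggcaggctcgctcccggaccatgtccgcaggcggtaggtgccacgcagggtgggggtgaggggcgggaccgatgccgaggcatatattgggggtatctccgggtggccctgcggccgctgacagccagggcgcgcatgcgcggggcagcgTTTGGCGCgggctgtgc
Uhrf1: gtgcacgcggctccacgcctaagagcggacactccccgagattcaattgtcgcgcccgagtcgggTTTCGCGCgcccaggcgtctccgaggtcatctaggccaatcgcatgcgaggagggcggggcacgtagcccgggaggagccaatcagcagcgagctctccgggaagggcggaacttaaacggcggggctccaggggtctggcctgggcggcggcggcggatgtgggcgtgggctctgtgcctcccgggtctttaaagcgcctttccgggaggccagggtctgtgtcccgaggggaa
Dnmt3a: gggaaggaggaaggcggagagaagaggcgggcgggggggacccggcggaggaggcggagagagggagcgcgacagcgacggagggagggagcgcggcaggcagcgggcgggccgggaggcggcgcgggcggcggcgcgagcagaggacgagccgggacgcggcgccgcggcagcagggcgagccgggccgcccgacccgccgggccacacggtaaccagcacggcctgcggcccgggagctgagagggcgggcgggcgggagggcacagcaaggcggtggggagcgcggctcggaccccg
Tet3: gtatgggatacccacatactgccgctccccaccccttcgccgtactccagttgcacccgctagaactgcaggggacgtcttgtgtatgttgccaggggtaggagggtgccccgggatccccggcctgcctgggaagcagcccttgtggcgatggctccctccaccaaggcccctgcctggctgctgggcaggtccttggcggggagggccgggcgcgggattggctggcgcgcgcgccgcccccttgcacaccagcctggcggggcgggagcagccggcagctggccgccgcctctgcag
The shown *Dnmt1* window held 2 such matches and that of *Uhrf1* held 1. The other windows of both genes, and every window of the other 6 genes searched, held 0. Of all 32851 promoters, 2.26% held at least 1 match. Of the 2812 with at least 33 CpG, as the shown windows of *Dnmt1* and *Uhrf1* have, 4.27% did. Each set of letters holds a CpG, and the windows were picked for CpG number, so the first share is no fair background. A match is a description of the letters and not a site shown to be bound. CpG counts per window were 33 for *Dnmt1*, 33 for *Uhrf1*, 47 for *Dnmt3a*, 30 for *Dnmt3b*, 17 for *Tet1*, 57 for *Tet2*, 22 for *Tet3* and 22 for *Mbd3*, against a median of 7 over all promoters. The shown windows were picked for their CpG number where a gene has several, so this is no comparison with the median: the other windows of *Dnmt1* held 12 and 2 CpG and that of *Uhrf1* 12. *Tet2* and *Mbd3*, not past the fold in any comparison, had as many CpG in their only window as *Tet3* or more.

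De novo methyltransferase transcripts were almost wholly those of *Dnmt3a*. *Dnmt3a* (chr12:3806980-3914443, plus strand) measured 10.6 in control, 9.86 in unaffected and 13.3 in affected cortex. The affected group was highest, 1.26-fold over control, just past the fold used, and 1.35-fold over unaffected (0.33 and 0.43 on the log2 scale). *Dnmt3b* (chr2:153649449-153687730, plus strand) stayed at 0.558, 0.557 and 0.586, which is below the level at which differences were counted. *Dnmt3a* exceeded *Dnmt3b* by 18.9-fold in control, 17.7-fold in unaffected and 22.7-fold in affected cortex, and *Dnmt3l*, the catalytically inactive cofactor of germ cells, was listed at 0 throughout. FPKM of the 3 methyltransferases together came to 40.0, 35.7 and 52.4, of which *Dnmt1* made up the greater part. *Dnmt3a* and *Dnmt3b* overlap the antisense genes *Dnmt3aos* and *Dnmt3bos*, and strand use in counting is not stated, so that reads from the partners cannot be told apart. *Gm10485*, which the table gives the same coordinates as *Dnmt3a*, had an FPKM of at most 0.0106.

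The 3 Tet enzymes, which oxidise 5-methylcytosine, differed from each other. *Tet3* (chr6:83362374-83456362, minus strand) measured 8.33 in control, 7.0 in unaffected and 11.3 in affected cortex. Affected exceeded control by 1.35-fold and unaffected by 1.60-fold (0.43 and 0.68 on the log2 scale), the widest gaps of any of the 9 genes in both comparisons. *Tet1* (chr10:62804570-62880014, minus strand) measured 2.51, 1.95 and 2.98. It differed more through the low unaffected value, with affected 1.504-fold over unaffected and 1.18-fold over control (0.59 and 0.24 on the log2 scale). *Tet2* (chr3:133463677-133544390, minus strand) measured 3.15, 2.84 and 3.01, with unaffected at -0.15 and affected at -0.06 against control on the log2 scale, and affected 0.08 above unaffected. *Tet3* thus accounted for 59.6% of summed Tet FPKM in control, 59.4% in unaffected and 65.3% in affected cortex, and *Tet2* for 22.5%, 24.1% and 17.5%. *B230319C09Rik*, on the strand opposite to *Tet3*, was listed at an FPKM of at most 0.0253.

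Both NuRD-associated binding proteins had similar levels in control and affected cortex. *Mbd2* (chr18:70568292-70628980, plus strand) measured 15.7 in control, 16.5 in unaffected and 16.0 in affected cortex. *Mbd3* (chr10:80392474-80399625, minus strand) measured 80.9, 88.9 and 81.0. For each, affected and control differed by 0.02 and 0.00 on the log2 scale, and affected lay below unaffected by -0.05 and -0.13. The ratio of *Mbd3* to *Mbd2* was 5.14, 5.38 and 5.08.

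Against control, 4 of the 8 counted genes were past the fold and higher in affected cortex (*Dnmt1*, *Uhrf1*, *Dnmt3a* and *Tet3*) and 0 were lower. Over all loci with a mean FPKM of at least 1, 12.1% were higher past the fold in this comparison and 11.3% lower, and of those with exactly 1 gene name, as the members have, 8.38% were higher. The median log2 difference of the 8 genes was 0.29, against 0.02 over all loci, and 7 of the 8 were above 0, against 52.9% of all loci. *Tet3* lay at percentile 93.8 of all loci, *Dnmt1* at 93.1, *Uhrf1* at 91.3 and *Dnmt3a* at 88.6, while *Mbd2*, *Mbd3* and *Tet2* lay between percentiles 38.4 and 50.01. The 4 genes past the fold were far from alone in these differences, which exceed those of most loci but are modest in size.

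Between the alcohol groups, 4 of 8 were past the fold and higher in affected cortex (*Dnmt1*, *Dnmt3a*, *Tet1* and *Tet3*) and 0 were lower, with a median of 0.33 against 0.01 over all loci. The background here was 20.3% of loci higher and 18.1% lower, and 16.6% higher among loci with 1 gene name. *Tet3* lay at percentile 95.3 and *Uhrf1*, which was not past the fold, at 72.9. Between unaffected and control, 0 were past the fold and higher and 1, *Tet1*, was lower (-0.35 on the log2 scale), with a background of 5.45% higher and 6.8% lower (2.02% lower among loci with 1 gene name) and a member median of -0.12. Of the members, 5 of 8 lay below control in unaffected cortex, where 7506 of all 15548 loci did, *Tet3* at -0.25 and *Dnmt1* at -0.19 among them. The 3 comparisons share groups, so these counts are not separate evidence: a low unaffected value widens the gap to affected.

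**Figure D2:**
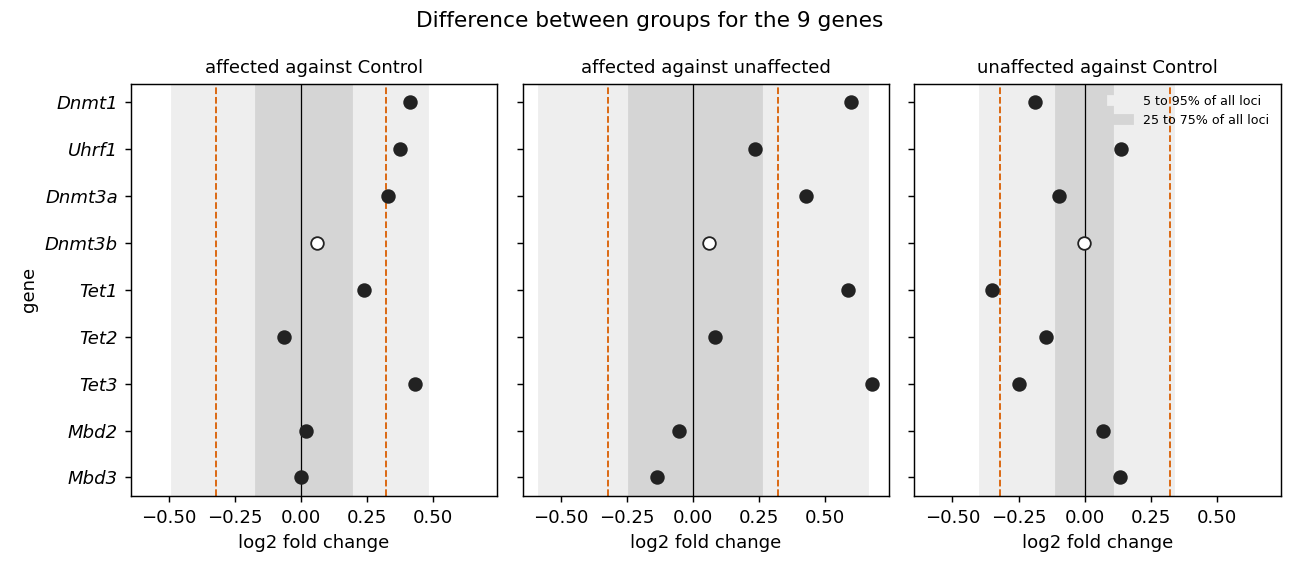
Log2 fold change of each gene (points; the open point is *Dnmt3b*, below an FPKM of 1) in the 3 comparisons, with the central 90% and 50% of all loci as light and dark bands and the threshold of 0.322 as dashed lines. *Dnmt1*, *Dnmt3a* and *Tet3* lie right of the dashed line in both comparisons of the affected group, and *Mbd2*, *Mbd3* and *Tet2* lie inside the dashed lines in all 3.

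Differences between the groups followed transcript length over all loci, and this bears on each of the genes. Among the 12559 loci with a known length, the shortest 2512 had a median log2 difference of -0.21 between affected and control and the longest 2512 had 0.19. The corresponding medians were -0.33 and 0.30 between affected and unaffected, and 0.11 and -0.11 between unaffected and control. The members that were higher in affected cortex have transcripts above the middle of these lengths, at 14369 nt for *Tet1*, 10904 nt for *Tet3*, 9685 nt for *Dnmt3a*, 5870 nt for *Dnmt1* and 3586 nt for *Uhrf1*, whereas those of *Mbd2* and *Mbd3* have 1953 and 1662 nt. *Tet2*, at 9179 nt, is nearly as long as *Dnmt3a* but was not past the fold in any comparison.

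Each gene was therefore set against the 500 loci nearest to it in length. Against control, *Uhrf1* in affected cortex lay 0.33 above its length neighbours and remained past the fold, *Dnmt1* lay 0.26 above, *Tet3* 0.18, *Dnmt3a* 0.09 and *Tet1* -0.01. *Mbd3* and *Mbd2*, level in plain FPKM, lay 0.14 and 0.12 above theirs, and *Tet2* lay 0.29 below, at -0.29. Against unaffected, *Dnmt1* lay 0.38 above its neighbours and was the only member past the fold, followed by *Tet3* at 0.25, *Uhrf1* at 0.19 and *Tet1* at 0.16. *Mbd2* and *Mbd3*, below unaffected in plain FPKM, lay 0.13 and 0.09 above their neighbours, so that their direction turned. *Dnmt3a*, at 0.03, differed little from loci of its length, and *Tet2*, above unaffected in plain FPKM, lay at -0.30. The count past the fold thus went from 4 to 1 in both comparisons of the affected group, and in unaffected against control from 1 to 0. Over all loci with a length, 4.14% of loci were higher past the fold between affected and control after the same subtraction, and 8.9% between affected and unaffected, and 1.65% were lower between unaffected and control. *Tet1* and *Tet3* lie near the upper end of the lengths and share most of their neighbours. In both comparisons of the affected group, *Dnmt1*, *Uhrf1*, *Tet3*, *Mbd2*, *Mbd3* and *Dnmt3a* lay above their length neighbours and *Tet2* below.

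**Figure D3:**
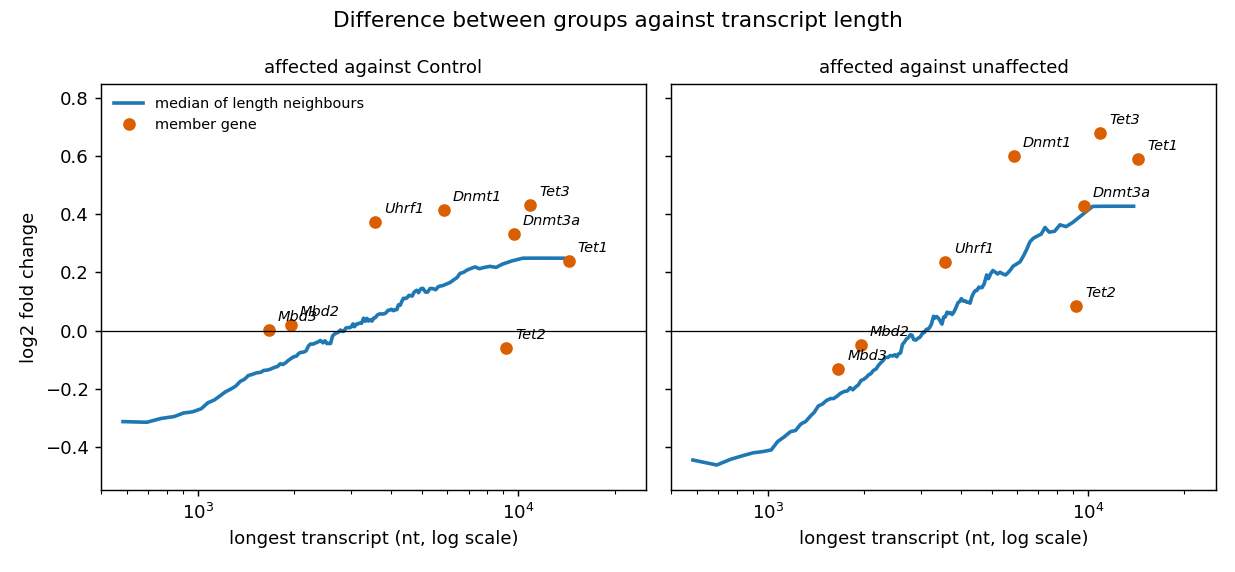
Log2 fold change against the length of the longest transcript (log axis) for the 8 genes with a mean FPKM of at least 1 (points) and the median of the 500 loci nearest in length (line). *Dnmt3a* and *Tet1* lie near the line in affected against control, *Uhrf1* and *Dnmt1* above it, and *Tet2* below it.

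The partners of maintenance methylation, listed beside *Dnmt1* and *Uhrf1*, differed in direction. Of 6 counted partners, 4 were above and 2 below control in affected cortex, 0 were past the fold, and the median was 0.12. *Usp7*, the deubiquitinase that stabilises Dnmt1 and Uhrf1, measured 25.8 in control, 23.5 in unaffected and 30.9 in affected cortex, and was the 1 partner past the fold between the alcohol groups. On the log2 scale it lay 0.39 above unaffected, where its length neighbours had a median of 0.16, and 1 of 6 is a share near the 20.3% of all loci. Genes of S phase and mitosis, during which *Dnmt1* and *Uhrf1* are normally most abundant, were above control in 14 of 20 cases, with 3 past the fold and higher (12.1% of all loci) and a median of 0.17. Between unaffected and control, 19 of 20 were above, with 2 past the fold (5.45% of all loci) and a median of 0.20. Between the alcohol groups, 10 of the 20 were above and 10 below, with 1 higher and 3 lower past the fold (20.3% and 18.1% of all loci) and a median of -0.02. After the length subtraction, 3 were higher past the fold against control (4.14% of all loci with a length), with a median of 0.15. In unaffected against control 3 were higher (1.62%), and between the alcohol groups 1 was higher and 4 lower (8.9% and 9.56%). *Mki67*, a marker of cycling cells with a 10061-nt transcript, measured 6.49, 6.08 and 10.7, and *Cdc6*, which loads the replicative helicase, 1.71, 2.05 and 2.33. In contrast, *Tyms*, which makes thymidylate, measured 19.4, 24.99 and 17.4, and *Gins2*, of the replicative helicase, 12.2, 15.5 and 10.9, each past the fold and lower in affected than unaffected cortex. The part of dividing cells in the level of *Dnmt1* was not tested.

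Genes that act with or after the Tet enzymes had medians near 0. Of 15 counted partners and base excision repair genes, 6 were above and 9 below control in affected cortex, 0 were past the fold, and the median was -0.02. Between the alcohol groups the median was -0.04, and 1 was past the fold: *Gadd45g*, of a family linked to active demethylation, which measured 19.8 in control, 25.6 in unaffected and 19.5 in affected cortex. Its -0.39 against unaffected on the log2 scale stood beside a median of -0.38 over its length neighbours, and 18.1% of all loci were lower past the fold. After the length subtraction, 1 of the 15 was higher and 1 lower past the fold against unaffected, where 8.9% and 9.56% of all loci with a length were. The higher one, *Cxxc5*, is counted again among the CXXC proteins below. *Tdg*, the glycosylase that removes oxidised methylcytosine, measured 75.4, 79.2 and 76.8, and was chosen here after its values were seen.

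Among subunits of NuRD, the largest differences in plain FPKM were in the remodelling ATPases and a scaffold subunit. Against control, 11 of 13 were above and 2 below, with 4 past the fold and higher (12.1% of all loci were), 0 lower, and a median of 0.24. The remodelling ATPase *Chd3* measured 66.6 in control, 53.5 in unaffected and 93.4 in affected cortex, 0.49 above control and 0.80 above unaffected on the log2 scale. *Chd4*, the main ATPase, measured 45.1, 40.6 and 60.6, *Chd5*, its neuronal relative, 9.10, 7.73 and 11.4, and the scaffold subunit *Gatad2b* 19.2, 17.2 and 25.6. After subtracting the medians of length neighbours, 0 of the 13 were higher past the fold against control, and *Rbbp4* was lower past it (6.17% of all loci with a length). In plain FPKM, *Chd3*, *Chd4*, *Chd5* and *Gatad2b* had the order unaffected, control, affected that *Dnmt1*, *Dnmt3a*, *Tet1* and *Tet3* also had, and their longest transcripts ran from 6697 nt for *Chd4* to 9486 nt for *Chd5*. Between the alcohol groups 6 of 13 were past the fold and higher, where 20.3% of all loci were. The histone-binding subunit *Rbbp4* was the 1 lower, at -0.42, where 18.1% of all loci were. After the subtraction 3 were higher, *Chd3*, *Mta1* and *Mta3* (8.9% of all loci with a length), and 1 was lower (9.56%). *Chd4*, *Chd5* and *Gatad2b* then fell short of the fold. With a fold of 1.5 the higher counts were 0 against control (3.42% of all loci) and 1 against unaffected (6.88%). Beside these, *Mbd2* and *Mbd3* of the same complex were within 0.13 of unaffected on the log2 scale.

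Genes listed as other readers of methylated DNA were above control in 10 of 12 cases, none past the fold, with a median of 0.14. Against unaffected, 3 of 12 were past the fold and higher, a share near the 20.3% of all loci, and 0 after the length subtraction. Among them, *Mbd5* measured 4.16 in control, 3.52 in unaffected and 4.97 in affected cortex, and *Mbd6* 7.02, 6.70 and 8.69. Both were listed by the name of their domain, and binding of methylated DNA is not shown for them here. Readers of unmethylated CpG, the CXXC proteins, were above control in 7 of 8 cases, with 1 past the fold (12.1% of all loci) and a median of 0.21, and above unaffected in 8 of 8, with 4 past the fold (20.3% of all loci) and a median of 0.31. After the length subtraction these counts past the fold were 0 and 1, the 1 being *Cxxc5* (4.14% and 8.9% of all loci with a length). With a fold of 1.5 they were 0 and 1 (3.42% and 6.88% of all loci). They were led by the histone H3 lysine 4 methyltransferases *Kmt2b* (7.72, 6.76 and 10.2) and *Kmt2a* (5.05, 4.06 and 6.08), the demethylase *Kdm2a* (13.8, 12.1 and 16.8) and its relative *Fbxl19* (38.1, 34.4 and 44.5). The longest transcripts of *Kmt2a*, *Kmt2b*, *Kdm2a* and *Mbd5* ran from 8469 nt for *Kmt2b* to 16470 nt for *Kmt2a*, in the range where loci in general were higher in the affected group. Those of *Mbd6* and *Fbxl19* are shorter, at 4287 and 3641 nt, and their 0.37 and 0.37 over unaffected on the log2 scale stood against medians of 0.09 and 0.06 over their length neighbours.

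Genes of the one-carbon cycle, which supplies the methyl donor, were above and below control in near equal number. Of 18 counted, 10 were above and 8 below control in affected cortex, 0 past the fold, with a median of 0.06. Between the alcohol groups the median was -0.03, with 1 higher and 2 lower past the fold of 18, where 20.3% and 18.1% of all loci were. *Cbs*, which draws homocysteine out of the cycle, measured 5.34, 4.63 and 5.89 and was the 1 higher gene, at 0.34 against unaffected where its length neighbours had a median of 0.24, so that 0 were higher after the subtraction. In turn, *Mat2b*, the regulatory subunit of methionine adenosyltransferase, measured 24.2, 25.2 and 20.0. *Tyms*, counted again here, was the other lower gene.

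Germline genes that promoter methylation keeps silent in somatic tissue were read as a list beside the enzymes and stayed at low levels. Of 17 such genes, 0 had a mean FPKM of at least 1, 13 were below 0.1, and *Tex19.1*, *Tex101*, *Asz1* and *Rpl10l* were listed at 0 in all groups. The highest value was 0.544, for *Tdrd1* in affected cortex, and their values summed to 1.57 for control, 1.45 for unaffected and 1.32 for affected cortex. The higher *Tet3* and *Dnmt1* values of the affected group were thus seen alongside germline genes that stayed near 0, and DNA methylation itself was not measured.

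**Figure D4:**
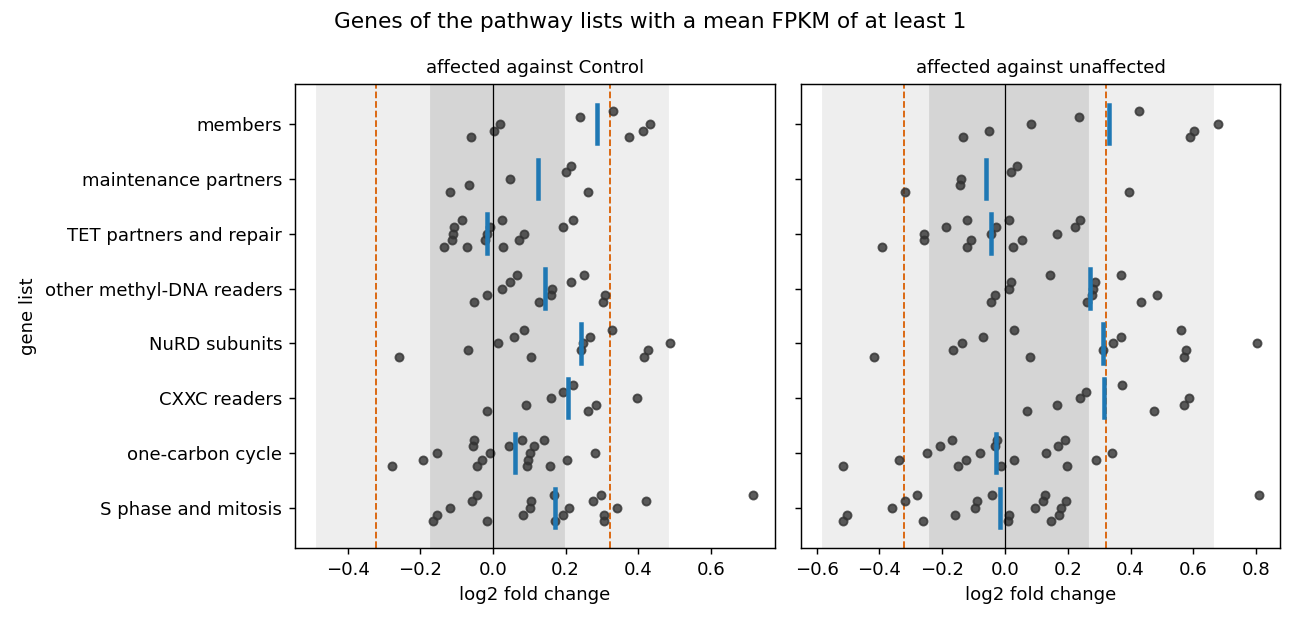
Log2 fold change of each gene with a mean FPKM of at least 1 (points) in the 9-gene set and 7 related lists, with the list median as a vertical bar, the central 90% and 50% of all loci as bands and the threshold of 0.322 as dashed lines. The medians of the members, NuRD subunits, CXXC proteins and other methyl-DNA readers lie right of 0 in both comparisons, while those of Tet partners and the one-carbon cycle run from -0.04 to 0.06.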

How the data were processed

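Total RNA of 9 fetuses was sequenced by the authors as 50-base paired-end reads. The submitters' processing notes name Bowtie2 2.2.4.0, Cufflinks, Cuffdiff and mm10, the methods name STAR and TopHat, and the annotation is not given in the sources used here. The deposited table gives FPKM, made by the authors' software as 1 value per locus and group over 3 animals, and it holds 0 columns of single animals. Columns with the authors' own fold changes, p-values and q-values were not used.

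From the FPKM, log2((a + 0.1)/(b + 0.1)) was computed for loci with a mean FPKM of at least 1 (Python 3.11.15, pandas 2.3.3, numpy 2.4.6). Gene lengths were those of the longest GENCODE transcript, known for 80.8% of these loci, and promoters came from RefSeq. The length subtraction was tested on simulated data. From each list, up to 4 genes past 0.322 on the log2 scale in either comparison of the affected group were named, those furthest from 0 first, and others are named where a count or an opposite value called for it. Some genes of these lists are not reported by name here. Members and lists were chosen with earlier results of these data known. Alternatives were other pseudocounts, centring, folds and filters. Without values per animal, FPKM carries no error here.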

Additional observations from a re-analysis of the deposited data

How the results depend on the processing

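No paired analysis was possible because the table holds 1 value per group, and for the same reason no animal could be left out in turn. With a pseudocount of 1, *Tet1* no longer counted as lower in unaffected than control cortex (0 genes in place of 1), and *Dnmt3a* fell short of the fold against control, at 0.31 on the log2 scale. It also did so with the median of all loci set to 0, at 0.31. With a fold of 1.5, the count higher in affected than control cortex was 0 in place of 4 (3.42% of all loci), that in affected over unaffected was 3 in place of 4 (6.88% of all loci), and that lower in unaffected than control was 0 in place of 1 (3.08% of all loci). After subtracting the median of length neighbours, these counts were 1, 1 and 0, and the cause of the length trend was not tested. A pseudocount of 0.01 changed no count. No member past the fold changed direction under these alternatives, but *Mbd2* and *Mbd3* against unaffected turned to 0.13 and 0.09 after the length subtraction, affected *Tet2* against unaffected to -0.30, affected *Tet1* against control to -0.01, and unaffected *Dnmt3a*, *Tet2* and *Mbd2* against control to 0.06, 0.00 and -0.01. With the median of all loci set to 0, affected *Mbd3* against control turned to -0.02, and the higher counts against control went from 4 to 3 for NuRD and from 3 to 2 for S phase and mitosis. The length subtraction of the related lists and the promoter share at 33 CpG were added after the data were seen. Depth is unknown, so the precision of low genes such as *Dnmt3b* cannot be given.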
